A study of Mus musculus with 4 samples.

Results

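The 9 genes described here mark the oligodendrocyte lineage: *Sox10*, *Olig1*, *Olig2*, *Nkx2-2*, *Gpr17*, *Pdgfra*, *Cspg4*, *Mbp* and *Cnp*. They are 9 of the 21091 entries listed for each library of cultured mouse neural progenitors, and each was found by its gene symbol. The set was chosen by an earlier look at these data, in which *Sox10* and *Gpr17* were higher in the E14 *Stat3* cKO library than in the E14 CTL library. The difference between genotypes at E14 is therefore given as a description. All 9 genes averaged 1 FPKM or more across the 4 libraries, as did 12449 entries. FPKM is a level in fragments, corrected for transcript length and for the total of mapped fragments in the library. *Sox10*, *Gpr17* and *Cspg4* were below 1 FPKM in both E11 libraries and reached that mean through E14, so these 3 had to differ between stages. *Nkx2-2* was below 1 FPKM in both E14 libraries and reached it through E11.

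Neural progenitors came from C57BL/6 embryos at embryonic day 11 (E11) or 14 (E14) and were grown for 3 days in suspension, in serum-free medium with EGF and FGF, before RNA was taken. Each stage had a control (CTL) and a *Stat3* conditional knockout library (*Stat3* cKO, cKO below), so that 4 groups had 1 library each. *Stat3* cKO animals carried floxed *Stat3*, a transcription factor gene downstream of cytokine receptors, and Nes-cre, a Cre recombinase driven by *Nestin* regulatory sequence in neural progenitors. CTL is labelled WT. The study's methods describe CTL in places as wild type and in places as Nes-cre with heterozygous floxed *Stat3*, so an effect of Cre itself, if CTL lacked it, cannot be told apart from that of the deletion. How many embryos went into a library is not given in the sources used here. With no replicates, no difference below carries a test or an error, and every fold compares single libraries.

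Oligodendrocytes are the myelin-forming cells of the central nervous system. Their precursors arise from ventral and later dorsal progenitors under the bHLH factors OLIG1 and OLIG2, divide in response to PDGF through the receptor PDGFRA, and carry the proteoglycan NG2, the product of *Cspg4*. SOX10 marks commitment to the lineage and NKX2-2 acts in ventral progenitors and again before myelination. The receptor GPR17 appears transiently in committed, pre-myelinating cells, and MBP and the enzyme CNP are proteins of myelin. Several of these genes are also used elsewhere: *Sox10* in neural crest, *Pdgfra* in mesenchyme, *Cspg4* in pericytes, and *Olig2* and *Nkx2-2* in ventral progenitors that make neurons.

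The targeted gene separated the genotypes at E14 and hardly at E11. *Stat3* was at 27.6 FPKM in E14 CTL and 9.55 in E14 cKO, 0.346 of the control level. At E11 it was at 7.41 FPKM in CTL and 6.74 in cKO, 0.911 of the control level. The summed FPKM per library ran from 806587 to 1461770. Relative depth, read from the steps that single fragments leave in low values, ran from 0.829 to 1.06 of the E14 cKO library, and the absolute number of fragments is unknown. The E14 libraries also differed in sex-linked transcripts: *Ddx3y*, a Y-linked gene, was at 0.0569 FPKM in CTL and 25.1 in cKO, and *Xist*, the RNA of the inactive X, at 13.6 and 0.0370. Embryo sex and genotype cannot be told apart at E14. In the E11 CTL and cKO libraries *Ddx3y* was listed at 0 and *Xist* was at 46.9 and 39.7 FPKM, so the stage comparison in cKO and the contrast of E14 with E11 genotype ratios cross the same difference. All 9 lineage genes lie on autosomes, and whether their levels depended on sex was not tested.

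Among the transcription factors, *Olig1* and *Olig2* stood highest at E14. *Olig1* was at 1.64 FPKM in E11 CTL, 2.85 in E11 cKO, 345 in E14 CTL and 311 in E14 cKO. *Olig2* was at 11.9, 15.5, 168 and 134 FPKM in the same order of libraries. Both E14 libraries lay far above both E11 libraries for both genes, and as deposited CTL was the lower genotype at E11 and the higher at E14, an E14 order that *Olig1* did not keep under upper-quartile scaling. In bulk RNA, fewer cells of a type and less RNA per cell cannot be told apart. The genes are neighbours on chromosome 16, listed at 91270013 to 91272184 for *Olig1* and 91225794 to 91228922 for *Olig2*. *Olig1* was at 0.138 of the *Olig2* level in E11 CTL and 0.183 in E11 cKO, and at 2.05 and 2.32 times that level at E14, so the order of the pair turned over between stages in both genotypes.

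*Sox10* was close to the bottom of the lineage set at E11 and among its middle members at E14. Its values were 0.215 FPKM in E11 CTL, 0.134 in E11 cKO, 6.74 in E14 CTL and 20.6 in E14 cKO. It stood at percentiles 29.2 and 27.5 of all entries in E11 CTL and cKO, and at 61.5 and 79.9 in E14 CTL and cKO. The gene is listed on chromosome 15 from 78985342 to 78994920. *Nkx2-2* ran the other way, at 2.93 and 2.85 FPKM in the E11 CTL and cKO libraries and 0.583 and 0.773 in the E14 ones. It was the only one of the 9 at or below 1 FPKM in E14 cKO. Its listed interval, on chromosome 2 from 147003281 to 147157417, is shared with the antisense gene *Nkx2-2as*, which was at 0.110 to 0.214 FPKM. Whether the counting used strand is not given in the sources used here, so the pair's reads cannot be told apart.

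**Figure D1:**
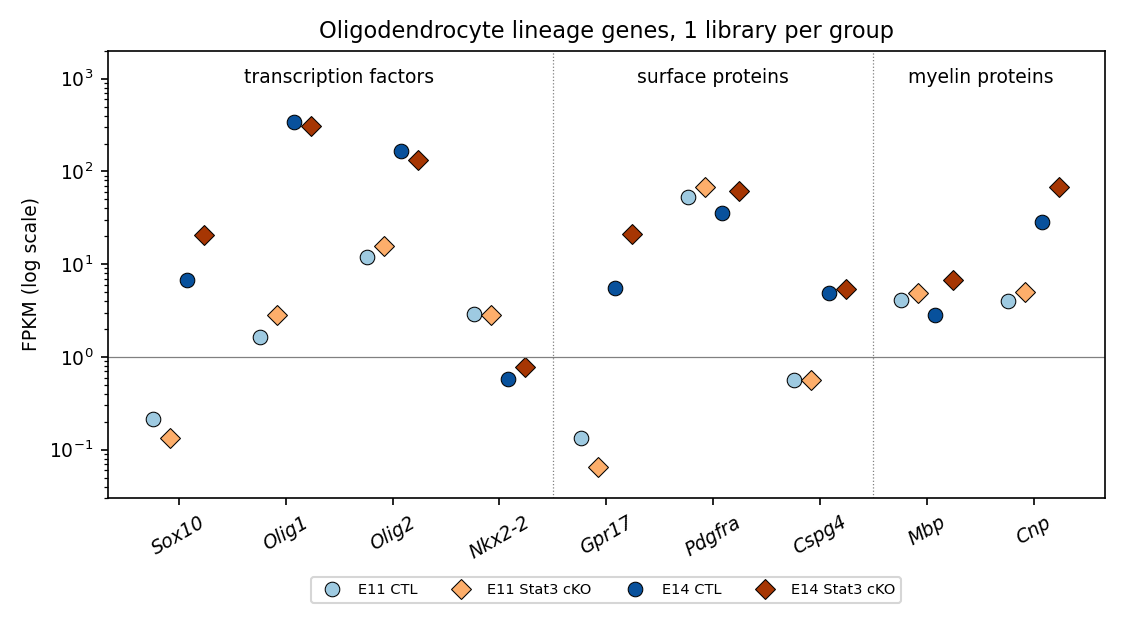
FPKM of the 9 lineage genes on a log axis in E11 CTL, E11 cKO, E14 CTL and E14 cKO, with 1 point per library. *Olig1* was at 1.64 and 2.85 FPKM at E11 and at 345 and 311 at E14, while *Nkx2-2* was lower at E14 in both genotypes.

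The receptors and surface proteins differed in their pattern. *Gpr17* was at 0.133 FPKM in E11 CTL, 0.0657 in E11 cKO, 5.58 in E14 CTL and 21.3 in E14 cKO. It is listed on chromosome 18 from 32091160 to 32118273, an interval shared with *Lims2*, an adaptor protein gene of focal adhesions. *Lims2* was at 0.646, 0.404, 2.10 and 6.00 FPKM in the same libraries, 2.86 times as high in cKO as in CTL at E14, so the assignment of reads between the 2 genes was not tested.

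*Pdgfra* was the most abundant member at E11, at 53.1 FPKM in CTL and 68.7 in cKO, and was at E14 at 35.9 and 61.2 FPKM. Its cKO values were above the CTL values at both stages. *Cspg4* was at 0.560 and 0.563 FPKM at E11 and 4.84 and 5.35 at E14, with both genotypes close together at each stage. The listed positions are chromosome 5 from 75548315 to 75594229 for *Pdgfra* and chromosome 9 from 56712910 to 56747677 for *Cspg4*.

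The myelin genes also parted. *Cnp*, which encodes a phosphodiesterase of non-compact myelin, was at 3.99 FPKM in E11 CTL, 5.01 in E11 cKO, 28.2 in E14 CTL and 68.0 in E14 cKO. *Mbp*, the gene of myelin basic protein, was at 4.09, 4.85, 2.82 and 6.75 FPKM. For *Mbp* the stages overlapped, with E14 CTL below both E11 libraries and E14 cKO above them. The *Mbp* gene also makes golli transcripts outside myelin, and a gene-level value does not separate the forms. *Cnp* is listed on chromosome 11 from 100436252 to 100443053.

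Promoter sequence is shown for *Cnp*, a member at least 2-fold higher in cKO at E14, and for *Olig2*, a member that was not. Of the 9 genes, 5 were matched in the RefSeq promoter table used here, on GRCm38.p6 (*Olig2*, *Nkx2-2*, *Pdgfra*, *Cspg4* and *Cnp*), and *Sox10*, *Olig1*, *Gpr17* and *Mbp* are named only. The 250 bases before the start of each gene, both on the plus strand, lie at chr11:100574689-100574938 for *Cnp* and chr16:91225300-91225549 for *Olig2*. These coordinates are of GRCm38.p6, a different build from that of the listed gene intervals. Capitals mark a SOX-type motif, ACAAAG in *Cnp* and, in *Olig2*, CATTGT, which is ACAATG read on the other strand.
*Cnp*: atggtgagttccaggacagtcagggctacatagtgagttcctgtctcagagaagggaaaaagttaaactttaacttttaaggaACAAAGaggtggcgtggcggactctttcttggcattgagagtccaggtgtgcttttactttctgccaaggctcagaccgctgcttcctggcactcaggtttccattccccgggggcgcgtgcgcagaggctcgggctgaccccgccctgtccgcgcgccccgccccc
*Olig2*: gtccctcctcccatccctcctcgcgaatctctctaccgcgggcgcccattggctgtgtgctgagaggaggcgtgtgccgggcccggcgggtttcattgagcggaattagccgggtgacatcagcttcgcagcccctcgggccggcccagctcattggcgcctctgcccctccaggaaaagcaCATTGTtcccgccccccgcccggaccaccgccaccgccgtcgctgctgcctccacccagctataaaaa

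The ACAAAG of the *Cnp* promoter starts 167 bases before the gene start, and 16.5% of 32851 promoters of this length held that motif on either strand. The ACAATG of the *Olig2* promoter lies 68 bases before the start, with 10.7% of all promoters holding it. The STAT-type motif TTCNNNGAA was in 0 of the 5 matched promoters and in 7.02% of all, which says only that these letters are not in these windows. GC content of the 5 windows ran from 54.4% in *Pdgfra* to 66.8% in *Olig2*. *Olig2* held 22 CpG sites, *Cnp* 13 and *Pdgfra* 4. A motif match is a description of the letters and not a bound site.

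Between E11 and E14, 6 of the 9 reached a level at E14 at least 2-fold higher in CTL and *Nkx2-2* was at least 2-fold lower, where 14.6% of 12430 genes were at least 2-fold higher and 12.5% lower. In cKO the split was also 6 and 1, with 10.1% of 12426 genes higher and 11.7% lower. The 6 genes were *Olig1*, *Olig2*, *Sox10*, *Gpr17*, *Cspg4* and *Cnp* in both genotypes. The medians of the members' log2 ratios were 3.11 in CTL and 3.25 in cKO, against 0.21 and 0.058 over all genes tested. The filter alone required *Sox10*, *Gpr17* and *Cspg4* to be higher at E14, so these counts and medians are no support for a stage difference of the set.

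The stage ratios spread widely among the 6. In CTL *Olig1* was 210.6 times as high at E14 as at E11, rank 3 of 12430 genes, and *Gpr17* 42.0 times, *Sox10* 31.3 times and *Olig2* 14.2 times as high. *Cspg4* and *Cnp* were 8.64 and 7.05 times as high. In cKO the order was *Gpr17* at 324.5 times, rank 2 of 12426 genes, *Sox10* at 152.9, *Olig1* at 109.3, *Cnp* at 13.6, *Cspg4* at 9.49 and *Olig2* at 8.65 times. The E11 denominators of *Sox10* and *Gpr17* were at most 0.215 FPKM, and their ratios depended on the pseudocount. With 0.1 FPKM added, the log2 ratios in cKO were 7.01 for *Gpr17*, 6.72 for *Olig1* and 6.46 for *Sox10*, against 8.34, 6.77 and 7.26 without it. With 1 FPKM added they were 4.39, 6.34 and 4.25, so *Olig1* came first. In CTL, adding 1 FPKM took *Gpr17* from 5.39 to 2.54 and *Sox10* from 4.97 to 2.67. *Nkx2-2* was 5.02-fold lower at E14 in CTL and 3.69-fold lower in cKO. With 1 FPKM added, its log2 ratios were -1.31 in CTL and -1.12 in cKO, against -2.33 and -1.88 without it. Those of *Cspg4* were then 1.9 and 2.02, against 3.11 and 3.25.

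**Figure D2:**
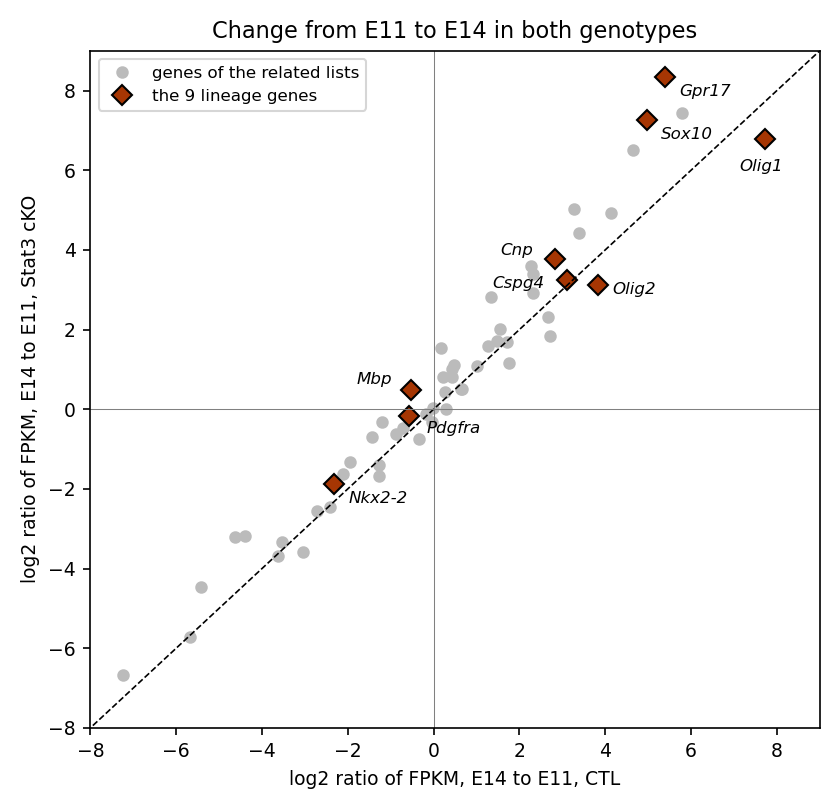
The log2 ratio of FPKM at E14 to E11 in CTL (horizontal) and in cKO (vertical) for the 9 lineage genes (diamonds) and genes of the related lists (circles); the dashed line marks equal ratios. *Gpr17* and *Sox10* lie above the line, *Olig1* and *Olig2* below it, and *Nkx2-2* is negative on both axes.

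The comparison of genotypes at E14 asked how loss of *Stat3* related to lineage genes in progenitors of that stage; it was the contrast the set was selected on, and it shares its E14 libraries with the stage comparisons above. At E14, 4 of the 9 genes were at least 2-fold higher in cKO than in CTL and 0 were lower, where 1.85% of genes were higher and 1.69% lower. Among genes with a mean of 1 to 10 FPKM, the range of *Sox10*, *Gpr17* and *Mbp*, 2.83% were higher. *Gpr17* was 3.82 times as high in cKO, *Sox10* 3.05 times, *Cnp* 2.42 times and *Mbp* 2.39 times as high. *Gpr17* ranked 26 and *Sox10* 57 of 12430 genes by this ratio, *Cnp* 115 and *Mbp* 124. Just outside the 2-fold line stood *Pdgfra*, at 1.70 times the CTL level, and just inside it *Mbp*.

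The other 5 genes differed by less than 2-fold between genotypes at E14. *Nkx2-2* was at 1.33 times and *Cspg4* at 1.10 times the CTL level in cKO, and *Olig1* and *Olig2* were at 0.902 and 0.799 of it. The sign for *Olig1* was not kept under scaling to the upper quartile, where its log2 ratio was 0.0045 in place of -0.15.  The median log2 ratio of the 9 was 0.77, and that of all genes was -0.079.

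At E11 none of the 9 was at least 2-fold higher in cKO and 1 was lower, *Gpr17*, against 0.209% of genes higher and 1.12% lower. *Gpr17* was 2.02-fold lower in E11 cKO, between 0.133 and 0.0657 FPKM, but within 2-fold once 0.1 FPKM was added (log2 ratio -0.491), and *Sox10* was at 0.624 of the CTL level. Both genes were near the foot of the E11 range, at or below percentile 29.2 of all entries. *Olig1* was at 1.74 times, *Olig2* at 1.31 times and *Pdgfra* at 1.29 times the CTL level in cKO, while *Cnp* and *Mbp* were at 1.25 and 1.19 times. The median log2 ratio of the 9 was 0.25 at E11, with 0.059 over all genes.

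**Figure D3:**
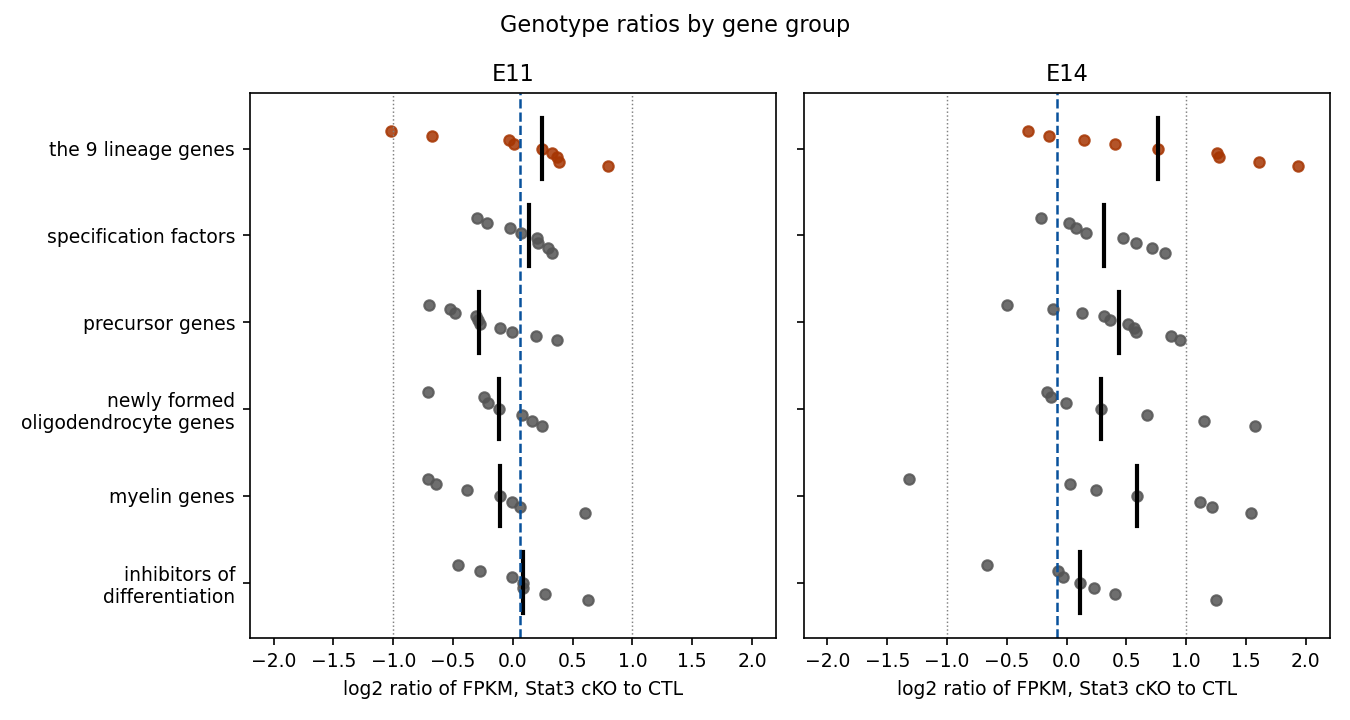
The log2 ratio of FPKM in cKO to CTL at E11 and at E14, 1 library per group, so without error bars. Points are the 9 lineage genes and the genes of the specification, precursor, newly formed oligodendrocyte, myelin and inhibitor lists that passed the filter. Points are not labelled by gene, black bars mark medians, and the dashed line marks the median of all genes. At E14 *Gpr17*, *Sox10*, *Cnp* and *Mbp* lie beyond 2-fold. Of the lineage genes at E11, *Gpr17*, *Sox10* and, at -0.036, *Nkx2-2* lie below 0.

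Ratios within a library do not depend on how libraries were scaled to each other. *Sox10* stood at 1.82% of the *Olig2* level in E11 CTL, 0.866% in E11 cKO, 4.01% in E14 CTL and 15.3% in E14 cKO. Against *Olig1* the stage pattern of *Sox10* was different, at 13.2% and 4.72% at E11 and 1.95% and 6.61% at E14, highest in E11 CTL. *Gpr17* stood at 0.250%, 0.0955%, 15.5% and 34.8% of the *Pdgfra* level in the same libraries. *Cnp* stood at 33.7%, 32.3%, 16.8% and 50.7% of the *Olig2* level, lowest in E14 CTL. By contrast *Cspg4* was at 1.05% and 0.819% of the *Pdgfra* level at E11 and at 13.5% and 8.74% at E14, with CTL above cKO at both stages. *Gpr17* was at 61.7% and 48.9% of the *Sox10* level at E11 and at 82.9% and 103.7% at E14.

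**Figure D4:**
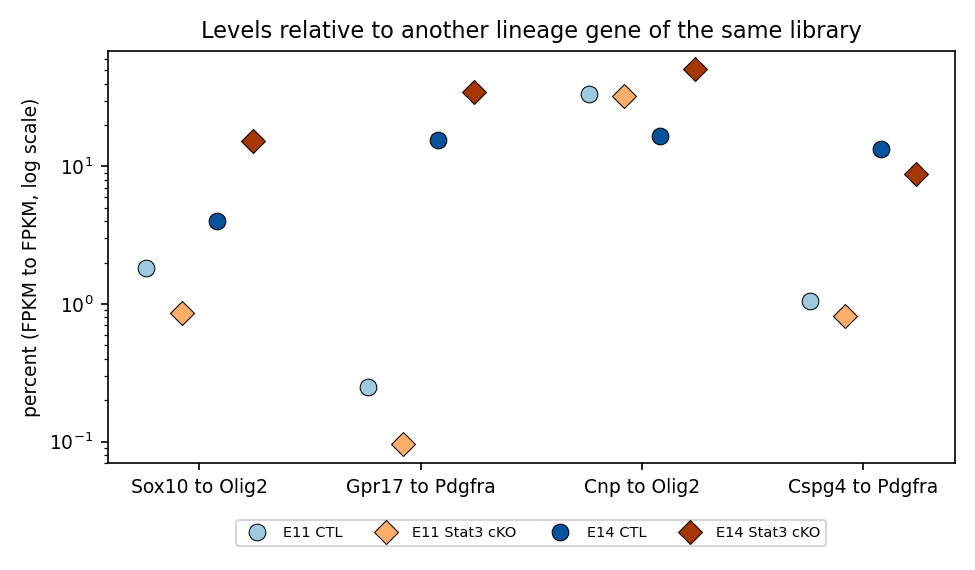
Levels of lineage genes as a percentage of another member in the same library (log axis) for the 4 libraries. *Sox10* relative to *Olig2* was highest in E14 cKO, at 15.3%, and 4.01% in E14 CTL.

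Other genes of the lineage came from 7 related lists, written with earlier results known. Of 10 specification factors, 8 had a mean of at least 1 FPKM. None of these 8 differed 2-fold between genotypes at E14, and 7 ratios were above 1, with a median log2 ratio of 0.32. *Sox8*, a SOX relative of *Sox10*, was the highest by ratio, at 26.3 FPKM in CTL and 46.3 in cKO, 1.77 times. *Nkx6-2*, a homeobox factor, was the lowest at 0.863 of its CTL level and overlaps *Inpp5a*. By stage, 1 of the 8 was at least 2-fold higher at E14 and 6 lower in CTL, and 1 and 4 in cKO. Over all genes, 14.6% were higher and 12.5% lower in CTL, and 10.1% and 11.7% in cKO. The same shares apply to the stage counts of the lists below. *Nkx6-2* and *Tcf7l2* were below 1 FPKM in both E14 libraries and passed the filter through E11, so they had to differ between stages. Between genotypes at E11, 5 of the 8 ratios were above 1, with a median log2 ratio of 0.13.

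Of 12 precursor genes, 10 passed the filter, none differed 2-fold between genotypes at E14, and 8 had ratios above 1, with a median log2 ratio of 0.44. *Bcan*, the gene of the matrix proteoglycan brevican, was at 102 FPKM in CTL and 195 in cKO, and *Xylt1*, a xylosyltransferase gene, at 9.62 and 6.80 FPKM. These were the ends of the list at E14. Between genotypes at E11, 2 of the 10 precursor ratios were above 1 and 8 below, with a median log2 ratio of -0.284. Of 8 genes of newly formed oligodendrocytes, 7 passed the filter and 2 were at least 2-fold higher in cKO, with a median log2 ratio of 0.29. *Bmp4*, a secreted signal of the BMP family, was at 0.448 FPKM in CTL and 1.33 in cKO, and *Bcas1*, which marks early myelinating cells, at 3.90 and 8.65 FPKM. At E14 relative to E11, 6 precursor genes were 2-fold higher and 1 lower in CTL, and 7 and 1 in cKO. *Pcdh15* of that list was below 1 FPKM in both E11 libraries and passed the filter through E14, so it had to differ between stages. *Bmp4* overlaps *Gm15217*, and *Fyn*, the kinase gene at the low end of the list, was at 0.895 of its CTL level. Of the 7 newly formed oligodendrocyte genes, 3 were 2-fold higher and 2 lower at E14 in each genotype. *Bcas1* and *Itpr2* were below 1 FPKM in both E11 libraries and passed the filter through E14, so they had to differ between stages. Between genotypes at E11, 3 of the 7 ratios were above 1 and 4 below, with a median log2 ratio of -0.113.

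Of 17 myelin genes only 7 had a mean of at least 1 FPKM, and 3 were at least 2-fold higher in cKO and 1 lower at E14. The median log2 ratio of the 7 was 0.59. *Omg*, a myelin glycoprotein gene, was at 2.86 FPKM in CTL and 6.65 in cKO, and its listed interval overlaps *Nf1*, *Evi2a* and *Evi2b*. *Gal3st1*, which sulphates a myelin lipid, was at 2.69 and 5.84 FPKM. *Trf*, the gene of transferrin, was 2.50-fold lower, at 10.02 and 4.01 FPKM. By stage, 5 of the 7 were at least 2-fold higher at E14 and 1 lower in both genotypes, against 14.6% of all genes higher in CTL and 10.1% in cKO. *Gal3st1* and *Omg* were below 1 FPKM in both E11 libraries and passed the filter through E14, so they had to differ between stages. Between genotypes at E11, 2 of the 7 ratios were above 1 and 5 below, with a median log2 ratio of -0.107.

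Of the 7 genes of inhibitors of differentiation, all passed the filter and 1 was higher, with a median log2 ratio of 0.12. *Hes5*, a Notch target, was at 124 FPKM in CTL and 294 in cKO, and *Hes1*, the low end, was at 0.630 of its CTL level. Of 5 PDGF ligand and receptor genes, 3 passed the filter and 1, *Pdgfrb*, was higher, at 0.625 and 1.58 FPKM. The ligand gene *Pdgfa* was at 8.09 and 8.31 FPKM, and *Pdgfc* was at 0.723 of its CTL level. None of 6 Hedgehog pathway genes differed 2-fold at E14, with *Ptch1* at 1.72 times and *Gli3* at 0.786 of its CTL level. The medians of the last 2 lists were 0.040 and 0.16. Between genotypes at E11 the median log2 ratios of the inhibitor, PDGF and Hedgehog lists were 0.081, -0.42 and 0.13. Of the inhibitor genes, 1 in CTL and 3 in cKO were 2-fold higher at E14. By stage, 5 of the 6 Hedgehog genes were at least 2-fold lower at E14 in each genotype, against 12.5% of all genes in CTL and 11.7% in cKO. *Shh*, *Gli1* and *Gli2* were below 1 FPKM in both E14 libraries and passed the filter through E11. They therefore had to differ between stages, and the count is no support for a stage difference of the list.

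Marker lists of other cell types moved with stage or genotype. The neural progenitor list was at least 1 FPKM for 8 of 8 genes in every library, with a summed level of 1449 to 7952 FPKM. The fibroblast list, whose 5 genes were all at least 63.6 FPKM at E11, summed to 1271 and 1122 FPKM at E11 and to 14.9 and 8.75 at E14. Its *Col3a1* was at 674 and 586 FPKM at E11. *Pdgfra* is also made by mesenchyme, so at E11 its level and that of the fibroblast genes cannot be told apart by source. The neural crest and Schwann list summed to 13.5 and 15.4 FPKM at E11 and to 2.12 and 2.09 at E14.

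At E14 in cKO against CTL, the neural crest marker *Foxd3* was at 0.0159 and 0.110 FPKM, near 0 in both libraries, while *Sox10* was at 20.6 and 6.74 FPKM. Of the 7 genes of the neural crest and Schwann list, 0 in CTL and 1 in cKO reached 1 FPKM. The ventral forebrain list, which holds genes of progenitors and of young neurons, summed to 16.6 FPKM in E14 CTL and 26.2 in E14 cKO, with 7 of its 8 genes higher in cKO and 3 of them, *Nkx2-1*, *Gsx2* and *Dlx2*, at least 2-fold. The dorsal forebrain list summed to 55.0 and 54.4 FPKM, with 4 of its 5 genes below the CTL level in cKO, none by 2-fold, and *Neurog2* above it at 13.0 and 20.9 FPKM. The 6 genes of the astrocyte list summed to 89.1 FPKM in CTL and 154 in cKO, most of it *Aldh1l1* at 78.6 and 136.5 FPKM. Of the 5 that passed the filter 2 were at least 2-fold higher, and *Gfap*, which did not pass, was at 0.901 and 0.186 FPKM, 4.84-fold lower. The neuron list summed to 928 and 806 FPKM with 5 of 5 below the CTL level as deposited. Its *Tubb3*, most of that sum, was at 0.909 of its CTL level. That is nearer to CTL than *Olig1*, whose order at E14 turned under upper-quartile scaling. Pericyte, microglia and endothelium lists summed to at most 2.19 FPKM in either E14 library. Their part in the lineage genes' differences was not tested.

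**Figure D5:**
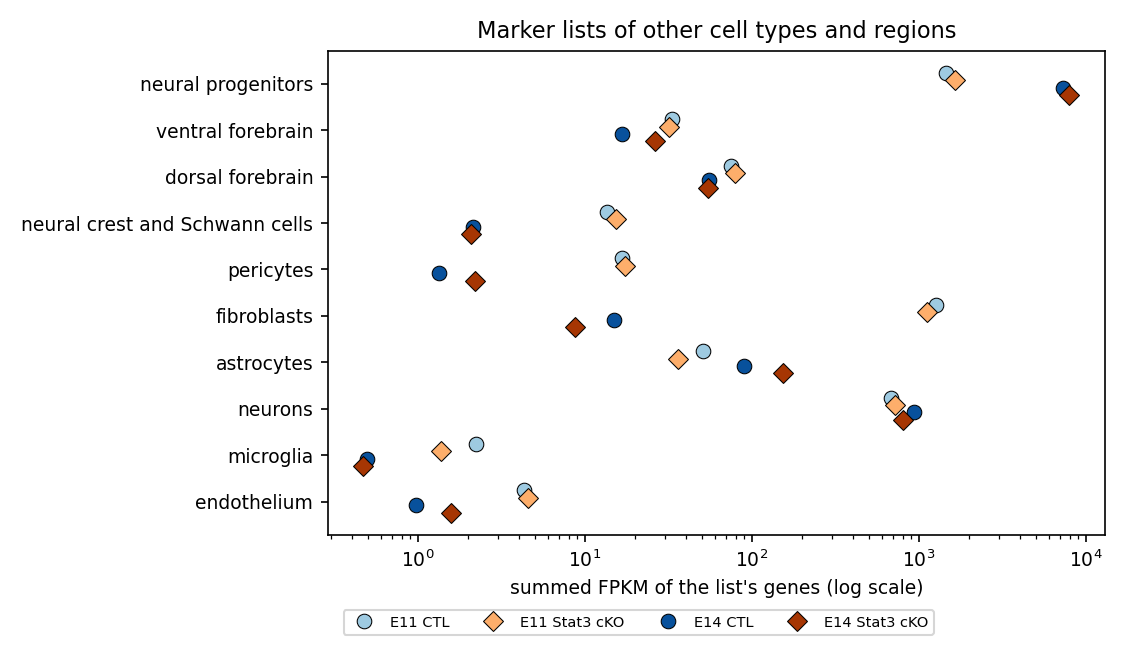
Summed FPKM (log axis) of marker lists for the cell types a progenitor culture could hold, in the 4 libraries. The fibroblast list is at 1271 FPKM in E11 CTL and 14.9 in E14 CTL, and the ventral forebrain list is at 16.6 in E14 CTL and 26.2 in E14 cKO.

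The genes whose 4 values most resembled those of *Sox10* were *Gpr17*, *Ramp1*, *Rgcc*, *Scrg1* and *Bcas1*. Likeness was the Euclidean distance between log2(FPKM + 0.1) values centred over the 4 libraries. The choice rests on the pseudocount: with log2(FPKM + 1), 1 of the 5 genes nearest to *Sox10* and 1 of the 5 nearest to *Gpr17* remained. The distance to *Gpr17* was 0.428 and that to *Bcas1* 0.794. Of the other members, *Cnp* ranked 55 of 12448 genes, *Olig1* 58, *Olig2* 83, *Cspg4* 106, *Mbp* 6500, *Pdgfra* 8955 and *Nkx2-2* 11757. For *Gpr17* the nearest were *Sox10*, *Scrg1*, *Rgcc*, *Ramp1* and *Bcan*. *Scrg1* was at 0.0316, 0.0823, 3.14 and 12.1 FPKM in E11 CTL, E11 cKO, E14 CTL and E14 cKO.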

How the data were processed

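RNA-seq was analysed for 4 libraries, 1 per group. The authors deposited FPKM values made with TopHat and Cufflinks. The submitters' processing notes list Bowtie 0.12.2 and the builds mm8 and mm9 without saying which made these values, and the versions of TopHat and Cufflinks are not given in the sources used here. Any scaling between libraries beyond FPKM is not stated, and gene intervals are as listed in the files.

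Deposited values were used unchanged. Genes averaging 1 FPKM or more were analysed by plain ratios without a pseudocount, a ratio of at least 2 counted as a difference, and a value of 0 gave no ratio. The members and the gene lists were chosen with earlier results of these data known. Named were all 9 members, the highest and the lowest gene by E14 ratio of each related list, any list gene at least 2-fold different at E14, entries overlapping a member, the 5 genes nearest to *Sox10* and to *Gpr17*, and *Stat3*. Some genes that this rule takes in are not reported here. Single marker genes, *Ddx3y*, *Xist* and other genes were picked after their values were seen. Alternatives varied the scaling, pseudocount, filter, fold and likeness. The steps were tested on simulated data. Python 3.11.15, numpy 2.4.6, pandas 2.3.3 and matplotlib 3.10.9 were used.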

Additional observations from a re-analysis of the deposited data

Results flagged for a closer look

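With 1 library per group, each difference in this paragraph compares 2 ratios of single libraries and was not tested. The genotype ratios of 5 of the 9 lineage genes pointed in opposite directions at E11 and E14, as did those of 55.4% of 12419 genes, so the count is near that of all genes. Under upper-quartile scaling *Olig1* left the 5, at 0.00446 on the log2 scale at E14, and *Cspg4* joined them, at -0.0614 at E11 and 0.296 at E14. *Cspg4* also joined once ratios were centred on the all-gene median. The log2 ratio between genotypes, cKO over CTL, differed between stages, and the E14 value minus the E11 value was 2.95 for *Gpr17*, 2.29 for *Sox10* and 0.444 for *Nkx2-2*, which were below CTL at E11 and above it at E14. With a pseudocount of 1 the differences were 1.85, 1.58 and 0.19, and as deposited the E11 log2 ratio of *Nkx2-2* was only -0.036. The difference without a pseudocount was -0.946 for *Olig1* and -0.712 for *Olig2*, which were above CTL at E11 and below it at E14. The E14 values of *Sox10* and *Gpr17* chose the set. For *Mbp* the stage ratios were opposite, 0.690 in CTL and 1.39 in cKO, a log2 difference of 1.01.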

How the results depend on the processing

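No paired analysis was possible because each group had 1 library. With a fold of 3 in place of 2, the members higher in cKO at E14 numbered 2 in place of 4. At E11 the number of lower members was 0 with a pseudocount of 0.1, 0 with a pseudocount of 1, 0 with a fold of 3 and 2 with a fold of 1.5, and the higher members numbered 1 with a fold of 1.5. With a mean of at least 5 FPKM, *Nkx2-2*, *Cspg4* and *Mbp* left the set, the members lower at E14 numbered 0 in CTL and 0 in cKO, and the median log2 stage ratios were 4.4 and 5.27. With log2(FPKM + 1), 1 of the 5 genes nearest to *Sox10* and 1 of those nearest to *Gpr17* were kept. Of the values recomputed, 78 that answer a comparison moved by less than 1.5-fold and 12 by more. Of single-gene log2 ratios, 155 moved by less than 1.5-fold and 13 by more, all 13 with a pseudocount. The sign turned for *Olig1* at E14 under upper-quartile scaling, and for *Cspg4* at E11 under 2 alternatives, from 0.0075 to as low as -0.061. Scaling to the upper quartile moved the median log2 ratio of all genes from -0.079 to 0.074 at E14 and the shares of genes higher and lower from 1.85% and 1.69% to 2.76% and 1.1%. In the CTL stage comparison it moved the median from 0.21 to -0.16 and the shares from 14.6% and 12.5% to 7.21% and 18%. The counts of 4 members higher at E14 and of 6 and 1 by stage were the same under both scalings. With no counts, the precision of values below 1 FPKM is unknown.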

Other observations

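Several genes of later oligodendrocyte stages had a mean below 1 FPKM and are given as values chosen after they were seen. *Enpp6*, which marks newly forming oligodendrocytes, was at 0.255 FPKM in E14 CTL and 1.25 in E14 cKO. *Mag*, a myelin adhesion protein gene, was at 0.0941 and 0.509 FPKM. *Gjb1*, an X-linked connexin gene, was at 0.551 and 1.13 FPKM. *Mog*, a protein of the outer myelin surface, was at 0.996 and 0.930 FPKM and *Opalin* at 0.0751 and 0.0718. *Myrf*, a regulator of myelin genes, was at 0.122 and 0.228 FPKM.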
